A study of Mus musculus with 6 samples.

Results

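Antioxidant and metal-binding transcripts were followed in the dentate gyrus (DG), the hippocampal subfield that holds the granule cells, 72 h after kainic acid-induced status epilepticus (KA-SE). The 10 genes were Hmox1, Nqo1, Gclc, Gclm, Txnrd1 and Srxn1, which are targets of the transcription factor NRF2, the metallothionein genes Mt1 and Mt2, and the antioxidant enzyme genes Gpx1 and Sod2. They were taken as every probe whose annotated symbol or synonym was one of these names, which gave 13 of the 45281 probes on the Illumina MouseWG-6 beadchip and 10 of its 19057 named genes. The KA-SE group was 3 male C57/Black6J mice of 6 to 8 weeks that had been injected intraperitoneally with repeated low doses of kainic acid, a glutamate receptor agonist, and of which, per the study's methods, only animals with long and severe seizures were used. The saline group was 3 males of the same strain and age injected with saline. Each array held RNA from the whole right DG of a single mouse, so that fewer cells of a type and less RNA per cell cannot be told apart in any value below.

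NRF2, encoded by Nfe2l2, is held in the cytoplasm and sent for degradation by KEAP1 until oxidants or electrophiles modify KEAP1. It then pairs with small MAF proteins on antioxidant response elements and switches on enzymes that make glutathione, repair oxidised thiols, reduce quinones and break down heme. Metallothioneins are small cysteine-rich proteins that bind zinc and copper. Mt1 and Mt2 are switched on by the zinc sensor MTF1 through metal response elements and also by glucocorticoids, and in brain they are chiefly made by astrocytes, while Mt3 is the brain-enriched member. Seizures release glutamate and, from the mossy fibres of granule cells, zinc, and they load neurons with calcium and reactive oxygen species.

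The promoters of the genes that the results turn on are shown because both regulators act through short elements near the start. RefSeq promoter sequences (mouse GRCm38.p6, from 250 bases before to 50 after the annotated start) were matched for 8 of the 10 genes, as 10 windows. The letters TGACNNNGC, a core of the antioxidant response element, and TGCACNC or TGCGCNC, a core of the metal response element, were searched on both strands, and every match is in capitals below. The Mt1 window lies at chr8:94178839-94179138 and the Mt2 window at chr8:94172368-94172667, so the neighbours share a chromosome. The Gclm window lies at chr3:122245307-122245606 and the Srxn1 window at chr2:152105274-152105573, and all are on the plus strand.
Mt1: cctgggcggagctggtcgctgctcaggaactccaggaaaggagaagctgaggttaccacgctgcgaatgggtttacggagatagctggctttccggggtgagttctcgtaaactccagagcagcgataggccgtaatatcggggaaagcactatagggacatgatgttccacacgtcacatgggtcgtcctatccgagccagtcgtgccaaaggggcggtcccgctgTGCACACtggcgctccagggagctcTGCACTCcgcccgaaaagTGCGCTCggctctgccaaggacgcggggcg
Mt2: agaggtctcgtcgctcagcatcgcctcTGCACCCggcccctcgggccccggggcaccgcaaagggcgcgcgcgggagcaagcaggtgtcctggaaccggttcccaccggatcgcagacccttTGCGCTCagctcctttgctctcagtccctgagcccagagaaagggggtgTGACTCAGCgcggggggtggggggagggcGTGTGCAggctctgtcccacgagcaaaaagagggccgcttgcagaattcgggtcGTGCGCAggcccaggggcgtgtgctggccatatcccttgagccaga
Gclm: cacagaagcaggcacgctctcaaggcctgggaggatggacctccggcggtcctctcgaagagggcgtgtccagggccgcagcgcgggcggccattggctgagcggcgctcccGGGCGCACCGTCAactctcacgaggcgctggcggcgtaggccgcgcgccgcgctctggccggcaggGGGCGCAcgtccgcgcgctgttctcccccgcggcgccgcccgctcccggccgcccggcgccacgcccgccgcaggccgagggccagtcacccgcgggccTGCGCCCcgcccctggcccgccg
Srxn1: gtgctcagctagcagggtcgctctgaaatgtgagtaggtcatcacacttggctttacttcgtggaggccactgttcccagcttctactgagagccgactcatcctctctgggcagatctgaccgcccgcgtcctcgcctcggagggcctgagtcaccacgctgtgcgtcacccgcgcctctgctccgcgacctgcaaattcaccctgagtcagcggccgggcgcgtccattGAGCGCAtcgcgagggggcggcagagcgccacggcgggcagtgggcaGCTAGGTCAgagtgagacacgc
The Mt1 window held 3 metal response element matches and the Mt2 window held 4, with 1 antioxidant response element match in Mt2. The Gclm window held 3 metal response element matches and 1 antioxidant response element match, and this last overlaps the metal response element match farthest from the start. The Srxn1 window held 1 match of each kind. An antioxidant response element match was present in 12.4% and a metal response element match in 25.7% of 32851 mouse promoter windows of the same length, and at least 3 metal response element matches in 1.97%. Windows of Nqo1, Gpx1 and Sod2 held neither, 1 of the 3 Txnrd1 windows held an antioxidant response element match, and a match is a description of letters and not a site in use.

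Between 21798 and 22771 probes, which is 48.1% to 50.3%, were detected on an array (detection p-value under 0.05). Of the 10 granule cell marker genes listed, 9 had a probe and 7 were detected on all 6 arrays, among them Prox1 and C1ql2. The probes of Calb1 and Tdo2 were detected on no array. All 9 markers listed for the neighbouring CA1 and CA3 pyramidal cells were detected on all arrays too. Transthyretin (Ttr), a choroid plexus transcript, had log2 signals of 13.28, 13.64 and 13.43 on the KA-SE arrays and of 14.85, 7.82 and 13.32 on the saline arrays, so the array of saline replicate 2 held little of it. The astrocyte filament gene Gfap rose by 1.89 ± 0.138 on the log2 scale (SE, limma adjusted p = 0.00057). A test was made for 21226 probes that every array of either group detected, and 49 of them passed an adjusted p of 0.05. That count was 85 without KA-SE replicate 1 and 4 or 5 without any other array.

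None of the 10 antioxidant and metallothionein genes passed the test between KA-SE and saline. Of their 13 probes, 10 probes of 8 genes could be tested, and 0 of these 10 passed, where 0.231% of all tested probes did. Their adjusted p-values (limma, Benjamini-Hochberg over all tested probes) lay between 0.313 for Gpx1 and 0.990 for Mt2. At an unadjusted p under 0.05, 1 of the 10 probes passed, that of Gpx1, beside 8.13% of all tested probes. All 3 KA-SE arrays lay above all 3 saline arrays for 5 of the 10 probes, from the 4 genes Gpx1, Gclm, Srxn1 and Nqo1, against 7.33% of all tested probes. By brightest tested probe, the log2 difference was above 0 for 6 of the 8 genes, with a median of 0.11, and above 0 for 49.7% of all 11222 genes, whose median was -0.0011. When arrays were scaled by their medians and not by quantiles, 4 of 8 genes were above 0, beside 26.2% of all genes. The members' median was then 0.03, beside -0.10 over all genes. Omission of KA-SE replicate 3 gave 4 of 8 genes above 0 and a median of 0.04, beside 54.1% and 0.018 over all genes. Omission of KA-SE replicate 1 gave 7 of 8 and 0.21, beside 48.4% and -0.0055 over all genes. The moderated SE lay between 0.107 and 0.304, and an exact permutation test on a single probe cannot give a p under 0.1 with 3 arrays a group.

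**Figure D1:**
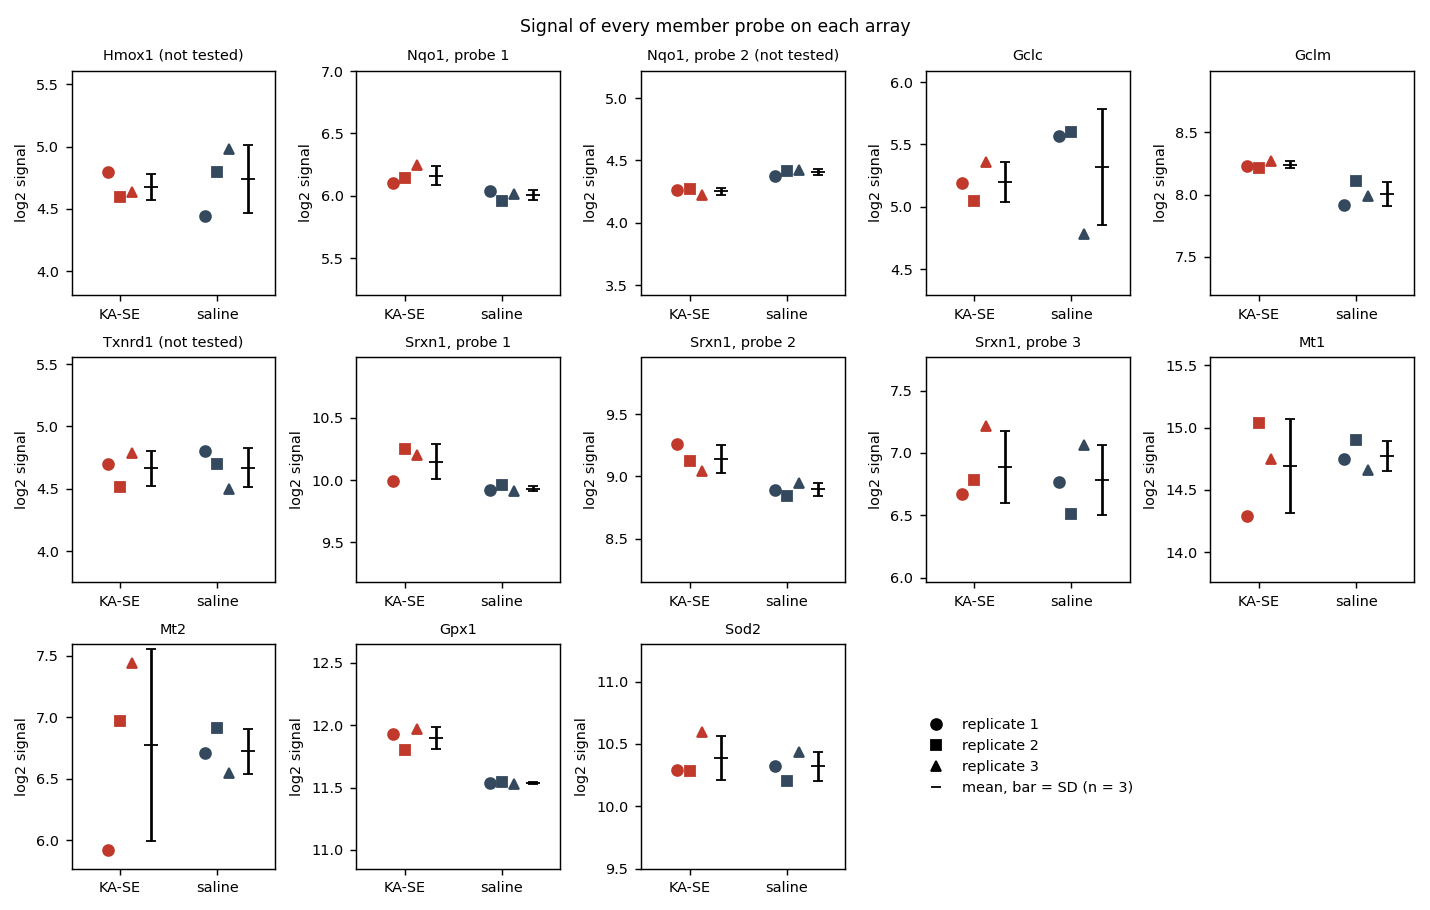
Log2 signal (vertical axis) of each of the 13 probes on every array, with KA-SE at the left and saline at the right of each panel, a marker shape for each replicate, and the mean with its SD (n = 3). The KA-SE arrays lie apart above the saline arrays for Gclm, Gpx1, the tested Nqo1 probe and 2 of the 3 Srxn1 probes, while Mt2 spreads most widely within KA-SE.

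Among the NRF2 targets, Gclm, Srxn1 and Nqo1 had probes whose KA-SE arrays all lay above the saline arrays, and none passed the test. With median scaling their differences were smaller, at 0.11 for Gclm, 0.0905 and 0.12 for the 2 such Srxn1 probes and 0.0963 for Nqo1, where the median of all genes was -0.10. Gclm encodes the modifier subunit of glutamate-cysteine ligase, which carries out the first step of glutathione synthesis. Its log2 signal was 8.23, 8.22 and 8.27 on the KA-SE arrays, against 7.92, 8.11 and 7.99 on the saline arrays. The groups did not overlap, and the KA-SE arrays were closer to each other than the saline arrays. The difference was 0.23 ± 0.109 (SE, n = 3 each, 95% interval -0.01 to 0.47), a 1.17-fold ratio with a limma adjusted p of 0.635. Gclc, the catalytic subunit of the same enzyme, was read close to background, at 5.19, 5.05 and 5.36 on the KA-SE arrays and at 5.57, 5.60 and 4.78 on the saline arrays. The array of saline replicate 3 was the lowest of the 6 and the other saline arrays were the highest, so that the KA-SE values lay inside the saline range. The Gclc difference was -0.12 ± 0.203 (95% interval -0.57 to 0.33, limma adjusted p = 0.962), and its sign turned when saline replicate 1 (0.0067) or saline replicate 2 (0.02) was left out.

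Srxn1 encodes sulfiredoxin, which returns overoxidised peroxiredoxins to their active form, and it was read by 3 probes. The brightest gave log2 signals of 9.99, 10.25 and 10.20 on the KA-SE arrays, against 9.92, 9.96 and 9.91 on the saline arrays. The second gave 9.26, 9.12 and 9.04 on the KA-SE arrays, against 8.89, 8.85 and 8.95 on the saline arrays. Neither probe overlapped between groups, but KA-SE replicate 1 was the lowest KA-SE array on the brightest probe and the highest on the second. Differences were 0.22 ± 0.115 (95% interval -0.04 to 0.47, limma adjusted p = 0.714) and 0.25 ± 0.112 (95% interval -0.0024 to 0.49, limma adjusted p = 0.620). The third and dimmest probe had 6.67, 6.78 and 7.22 on the KA-SE arrays and 6.77, 6.51 and 7.07 on the saline arrays. Its groups overlapped, replicate 3 was the highest array in each, and the difference was 0.11 ± 0.177 (limma adjusted p = 0.962). Its sign turned without KA-SE replicate 3 (-0.06) or saline replicate 2 (-0.03).

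Nqo1 encodes a quinone reductase that is widely used as a readout of NRF2. Its tested probe had log2 signals of 6.10, 6.14 and 6.25 on the KA-SE arrays, against 6.04, 5.96 and 6.01 on the saline arrays. The groups lay only just apart, and the difference was 0.16 ± 0.107 (95% interval -0.08 to 0.40, 1.12-fold, limma adjusted p = 0.809). A further Nqo1 probe was detected on 0 of 6 arrays and lay at 4.26, 4.27 and 4.22 on the KA-SE arrays and 4.38, 4.42 and 4.42 on the saline arrays, which is below detection, so it was not tested.

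The transcripts of Hmox1 and Txnrd1 were not measurable in most of these samples. Hmox1 encodes heme oxygenase 1, which splits heme into biliverdin, iron and carbon monoxide, and Txnrd1 encodes cytosolic thioredoxin reductase. Hmox1 lay at 4.80, 4.60 and 4.64 on the KA-SE arrays and at 4.44, 4.80 and 4.98 on the saline arrays. Txnrd1 lay at 4.70, 4.51 and 4.78 on the KA-SE arrays and at 4.81, 4.70 and 4.50 on the saline arrays. Each was detected on 1 of 3 KA-SE arrays and 1 of 3 saline arrays, the groups overlapped, and neither was tested. A difference in these transcripts was therefore not detectable on these arrays, which does not show that there was none.

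The metallothioneins were the members with the widest spread among KA-SE mice. Mt1 was among the brightest probes of the array, with log2 signals of 14.29, 15.04 and 14.74 on the KA-SE arrays, against 14.74, 14.90 and 14.66 on the saline arrays. The saline arrays lay inside the KA-SE range, since KA-SE replicate 1 was the lowest of the 6 arrays and KA-SE replicate 2 the highest. The difference was -0.08 ± 0.176 (95% interval -0.47 to 0.31, 0.947-fold, limma adjusted p = 0.975). Raw Mt1 intensities were 18302, 31212 and 30122 on the KA-SE arrays and 28197, 26873 and 30156 on the saline arrays, and the brightest probe of an array lay between 31594 and 41974. Whether the scanner's upper limit compressed Mt1 was not tested.

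Mt2 was far dimmer on its probe, which says nothing of the level of Mt2 beside Mt1, as probes differ in brightness. It had log2 signals of 5.92, 6.97 and 7.44 on the KA-SE arrays, against 6.71, 6.91 and 6.55 on the saline arrays. Again KA-SE replicate 1 was the lowest array, here with KA-SE replicate 3 the highest, and the saline arrays lay between. The difference was 0.05 ± 0.304 (95% interval -0.62 to 0.73, limma adjusted p = 0.990). As a ratio the interval ran from 0.650 to 1.65, so the data allow a change of that size in either direction. Mt3, chosen after its values were seen, had 12.25, 13.19 and 13.33 on the KA-SE arrays and 13.03, 13.05 and 12.98 on the saline arrays, with the array of KA-SE replicate 1 again the lowest (difference -0.09 ± 0.234, limma adjusted p = 0.980).

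That array decided the sign for Mt1 and Mt3, and Mt2 was higher without it. Measured from the saline mean, KA-SE replicate 1 lay at -0.48 for Mt1 and -0.80 for Mt2, KA-SE replicate 2 at 0.27 and 0.24, and KA-SE replicate 3 at -0.02 and 0.72. Without KA-SE replicate 1 the difference was 0.12 for Mt1 (limma adjusted p = 0.875), 0.48 for Mt2 (limma adjusted p = 0.430) and 0.24 for Mt3 (limma adjusted p = 0.595). Mt2 turned sign when KA-SE replicate 3 (-0.28), KA-SE replicate 2 (-0.04) or saline replicate 3 (-0.03) was left out. It also did so with median scaling (-0.03, beside a median of -0.10 over all genes). None of these passed the test. Mt1 and Mt2 share transcription factors, a chromosome and the low array, so they are not separate evidence on that mouse.

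**Figure D2:**
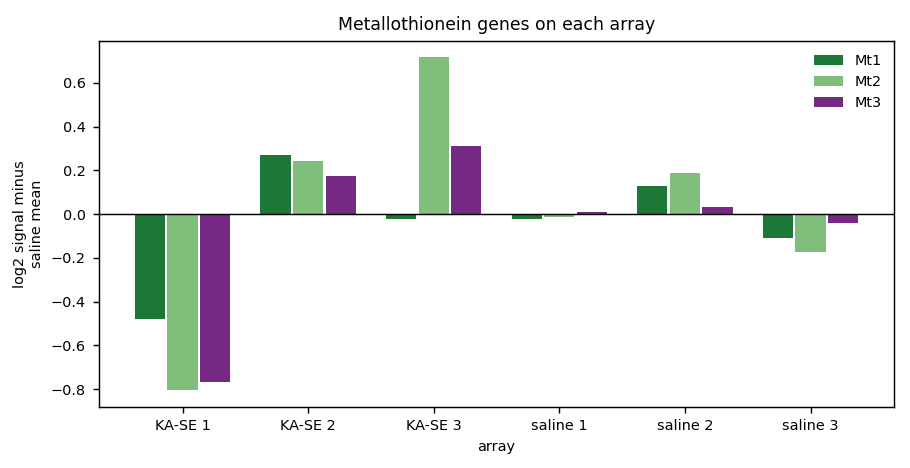
Log2 signal of Mt1, Mt2 and Mt3 minus the mean of the saline arrays (vertical axis) on each array (horizontal axis, KA-SE at the left, saline at the right). All 3 bars of KA-SE replicate 1 point down, to -0.80 for Mt2, while the other KA-SE arrays differ among the genes.

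Gpx1 gave the lowest p-value of the set. It encodes the abundant cytosolic selenoenzyme that uses glutathione to reduce hydrogen peroxide. Its log2 signal was 11.93, 11.80 and 11.97 on the KA-SE arrays, against 11.53, 11.55 and 11.53 on the saline arrays. The groups did not overlap, and the saline arrays were almost equal (SD 0.0890 in KA-SE and 0.0085 in saline). The difference was 0.36 ± 0.108 (SE, n = 3 each, 95% interval 0.12 to 0.60), a 1.29-fold ratio with an interval from 1.09 to 1.52. Its limma adjusted p of 0.313 missed the threshold, as did the adjusted p under every alternative run (0.137 to 0.882). With median scaling the difference was 0.24, where the median of all genes was -0.10.

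Markers of glia were set beside these values. Of the 16 microglia and macrophage markers listed, 13 were tested, all were detected on all arrays, and their summed signal was 5374 to 8322 on the KA-SE arrays, against 3801 to 3978 on the saline arrays. Lyz2, a lysozyme of macrophages and microglia, passed the test (log2 difference 1.08, limma adjusted p = 0.044), and missed it when any array other than KA-SE replicate 1 was left out (0.0907 to 0.180). Lyz2 alone of the 13 passed, where 0.312% of all genes did. Of the 13, 12 lay apart with KA-SE higher, beside 871 of the 10661 genes detected on all arrays. The 14 astrocyte markers, all tested, summed to 51898 to 54611 on the KA-SE arrays and 37823 to 40779 on the saline arrays. Only Gfap of these 14 passed, beside the same 0.312% of all genes. Of the 14, 7 lay apart with KA-SE higher, beside the same 871 of 10661 genes. The other 7 overlapped between groups, and 1 of the 14 (Acsbg1) was below 0. Without Gfap the sum was 42088 to 44198 on the KA-SE arrays and 35059 to 38075 on the saline arrays. The 4 tested of 7 blood markers summed to 16509 to 20538 on the KA-SE arrays and 14179 to 16196 on the saline arrays. No marker of these lists that was tested was at background on any array. The part of these cells in the Gpx1, Gclm and Srxn1 values was not tested. The microglia markers averaged 8.09, 8.24 and 8.72 on the log2 scale on the KA-SE arrays and 7.68, 7.63 and 7.67 on the saline arrays, so KA-SE replicate 1, the lowest array for the metallothioneins, was the lowest of the KA-SE arrays here and still above saline. That array was also the lowest of the 6 for other genes, among them Cox17 (11.23), Atox1 (9.62), Aldh2 (10.003), S100b (5.42) and Ddit4 (8.41), picked after their values were seen. It was the lowest for 17.6% of all 11222 genes, where the other arrays were so for 11.1% to 23.5%.

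Sod2, the manganese superoxide dismutase of mitochondria, had log2 signals of 10.29, 10.28 and 10.59 on the KA-SE arrays, against 10.32, 10.20 and 10.44 on the saline arrays. The groups overlapped, with replicate 3 the highest array in both. The difference was 0.07 ± 0.128 (95% interval -0.21 to 0.35, limma adjusted p = 0.967). It turned to -0.06 with median scaling and to -0.03 without KA-SE replicate 3.

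**Figure D3:**
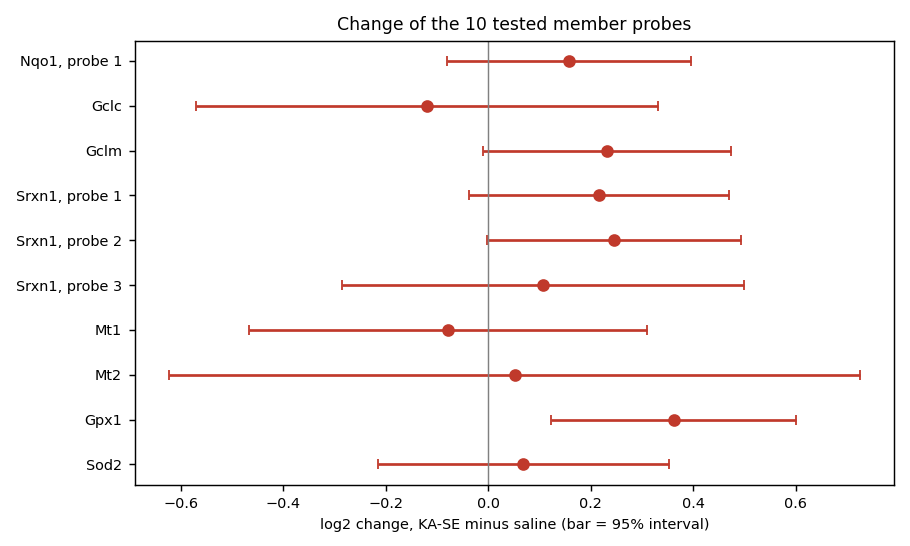
Log2 difference of KA-SE minus saline (horizontal axis) for the 10 tested probes, with bars for the 95% interval of the limma fit. The interval of Gpx1, 0.12 to 0.60, lies above 0, while the intervals of the other 9 probes include 0 and that of Mt2 is the widest.

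The genes whose pattern over the 6 arrays was most like that of Gpx1 were ranked by the root mean square difference of mean-centred log2 values among 11214 genes. They were Luc7l (0.0205), Rtn4rl1 (0.0228), Lrpap1 (0.0341), Trf (0.0351) and Pter (0.0446). Their log2 differences between KA-SE and saline lay between 0.32 and 0.40, and their limma adjusted p-values between 0.281 and 0.415. They were ranked on these same arrays, so their likeness is a description, and none of the 5 passed the test. Trf, which encodes transferrin, had log2 signals of 12.35, 12.25 and 12.38 on the KA-SE arrays, against 11.96, 11.998 and 11.88 on the saline arrays.

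The wider antioxidant and metal pathways were read from 9 lists, with 139 distinct genes tested. None of the 139 passed in either direction, where 0.312% of all genes by brightest probe did, and the lowest limma adjusted p was 0.248, that of Ugt1a6a, which no saline array detected. At an unadjusted p under 0.05, 16 genes or 11.5% passed, beside 8.45% of all genes. These 16 include Ugt1a6a, Ncf4 and Akr1b8, which entered the test only because every KA-SE array detected them. Among the 134 genes detected on all 6 arrays, an alternative chosen after seeing the data, 13 or 9.70% passed at this level, beside 7.88% of all such genes. The difference over all 139 was above 0 for 71 and below 0 for 68 of them, with a median of 0.0019.

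Among 10 tested regulators of NRF2, 3 were above 0 and 7 below, with a median log2 difference of -0.06. Nfe2l2, the gene of NRF2 itself, had 6.02, 6.19 and 6.11 on the KA-SE arrays, against 6.02, 5.99 and 5.77 on the saline arrays. The groups lay next to each other at 6.02, and the difference was 0.18 (limma adjusted p = 0.788). Bach1, which represses the same elements and Hmox1 in particular, had 6.71, 6.61 and 6.71 on the KA-SE arrays, against 6.55, 6.21 and 6.35 on the saline arrays. Its groups were apart, but the difference of 0.31 did not pass (limma adjusted p = 0.513). Keap1 overlapped between groups at a difference of -0.06 on its brightest probe (limma adjusted p = 0.968). Dimmer Keap1 probes gave -0.13, -0.19 and -0.27, and none passed. Differences were -0.24 for Sqstm1, the autophagy receptor p62 that binds KEAP1, and -0.17 for Rbx1, a subunit of the ligase that KEAP1 recruits (limma adjusted p = 0.633 and 0.817). A dimmer Rbx1 probe gave -0.01.

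Glutathione genes were balanced around 0, with 13 of 28 tested above 0 and a median of -0.0052. Gstk1, a glutathione transferase of mitochondria and peroxisomes, had the lowest p, at 8.99, 9.47 and 9.41 on the KA-SE arrays, against 8.87, 8.93 and 8.74 on the saline arrays. Its difference was 0.44 (limma adjusted p = 0.378), and a further probe gave 0.46. Chac1, which degrades glutathione, had a difference of -0.36 and Gsta4, which conjugates lipid aldehydes, one of -0.29, at limma adjusted p-values of 0.495 and 0.502. Gstp2, whose close relative Gstp1 may share its probe's target, had one of 0.26 (limma adjusted p = 0.649). The tested probes of Gstp1 itself gave -0.13, -0.25 and -0.33, and none passed. The cystine transporter Slc7a11 (0.08), the lipid peroxidase Gpx4 (0.04) and the synthetase Gss (-0.09) overlapped between groups. Dimmer Gpx4 probes gave -0.19 and 0.10. Dimmer tested Gss probes gave -0.25, -0.07 and -0.19, and a dimmer tested Slc7a11 probe gave 0.16.

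Thioredoxin, peroxiredoxin and glutaredoxin genes had a median of 0.05, with 12 of 19 above 0. Prdx4, the peroxiredoxin of the endoplasmic reticulum, had 10.28, 10.32 and 10.37 on the KA-SE arrays, against 9.99, 9.91 and 9.91 on the saline arrays. The groups lay apart, and its difference of 0.39 had a limma adjusted p of 0.262. Txnip, which binds and inhibits thioredoxin, had 8.997, 9.38 and 9.22 on the KA-SE arrays, against 8.80, 8.88 and 8.78 on the saline arrays (difference 0.38, limma adjusted p = 0.382). A further Txnip probe gave 0.35. The stress proteins Sesn1 (0.29) and Sesn3 (0.32) had limma adjusted p-values of 0.625 and 0.697. Dimmer Sesn1 probes gave 0.13 and -0.045.

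Superoxide dismutase, catalase and NADPH oxidase genes had a median of 0.08 over the 5 detected on all arrays, and of 0.16 with Ncf4, which entered the test only through the KA-SE arrays. Ncf4, a subunit of the phagocyte NADPH oxidase, had 5.11, 5.32 and 5.72 on the KA-SE arrays, against 5.11, 4.64 and 4.63 on the saline arrays, of which only 1 of 3 detected it, so no fold is given. Cyba, a further subunit, had a difference of 0.48 with overlapping groups (limma adjusted p = 0.578). Both are expressed by microglia, whose markers stood higher on the same arrays, and the part of these cells was not tested. Catalase (Cat) had a difference of 0.23 and the cytosolic dismutase Sod1 one of -0.20 (limma adjusted p = 0.712 and 0.766). Sod1 had 11.73, 11.97 and 12.05 on the KA-SE arrays, against 12.13, 12.05 and 12.16 on the saline arrays, so its KA-SE arrays lay just below the saline arrays. A dimmer Sod1 probe gave a difference of -0.05.

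Heme and iron genes had a median of 0.05, with 10 of 16 above 0. Besides Trf (0.38, limma adjusted p = 0.281), the iron exporter Slc40a1 had 8.57, 8.10 and 8.53 on the KA-SE arrays, against 8.15, 7.82 and 7.77 on the saline arrays. Its groups overlapped at KA-SE replicate 2 and saline replicate 1 (difference 0.49, limma adjusted p = 0.368). Ferritin light chain Ftl1 had a difference of 0.26 and the iron importer Slc11a2 one of -0.24 (limma adjusted p = 0.731 and 0.729). A dimmer Ftl1 probe gave -0.23, and dimmer Slc11a2 probes gave -0.03 and -0.21. NADPH-supplying enzymes had a median of 0.02 over 9 tested, led by the mitochondrial isocitrate dehydrogenase Idh2 (0.34, limma adjusted p = 0.624), with Taldo1 at 0.19, Me1 at 0.11 (-0.0020 with median scaling) and Nadk at -0.05. A dimmer Nadk probe gave 0.03.

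Detoxification genes linked to NRF2 had a median of -0.03 over the 10 detected on all arrays, with 4 of them above 0. The median was 0.03, with 6 of 12 above 0, once Ugt1a6a and Akr1b8 were counted, which entered the test only through the KA-SE arrays. Ugt1a6a, a glucuronosyltransferase, had 4.86, 5.79 and 5.19 on the KA-SE arrays, against 4.44, 4.40 and 4.69 on the saline arrays, where it was detected on 0 of 3. Its mean KA-SE signal was 1.41-fold a saline floor, set on each array at the lowest detected signal or its own signal if higher. This ratio carries no interval, and Ugt1a6a did not pass (limma adjusted p = 0.248). Further Ugt1a6a probes were each detected on 1 of 3 KA-SE and 0 of 3 saline arrays and were not tested. Genes of this cluster share their last exons, so the reading may belong to several of them. The aldo-keto reductase Akr1b8 had 4.92, 5.06 and 5.72 on the KA-SE arrays, against 4.48, 4.86 and 4.63 on the saline arrays, of which 1 of 3 detected it, so no fold is given. The cytochrome Cyp1b1 (0.45) and the quinone reductase Nqo2 (0.26) had limma adjusted p-values of 0.564 and 0.597. Dimmer Nqo2 probes gave 0.08 and 0.07.

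Zinc and copper genes lay around 0, with 10 of 22 above 0 and a median of -0.0055. The copper chaperone Cox17 had a difference of -0.28, which was -0.0842 without KA-SE replicate 1. Slc30a3, the transporter that fills synaptic vesicles of mossy fibres with zinc, had a difference of -0.18, and the zinc importers Slc39a3 and Slc39a12 had -0.21 and 0.17. The limma adjusted p-values of these 4 genes lay between 0.748 and 0.814. For Slc30a3 the KA-SE arrays lay just below the saline arrays, and a dimmer probe gave -0.23. Glucocorticoid-responsive genes, listed because glucocorticoids also switch on metallothioneins, had a median of -0.0083 over 17 tested, 7 of them above 0. On the log2 scale the list averaged 8.28, 8.83 and 8.41 on the KA-SE arrays and 8.30, 8.69 and 8.33 on the saline arrays. Replicate 2 was the highest array of each group, as it was for Mt1. Mt2 was highest on KA-SE replicate 3 and saline replicate 2. This was read after the values were seen, and a link was not tested. Differences were 0.30 for Pdk4, -0.26 for Zbtb16, 0.41 for Sgk1 and -0.35 for Ddit4 (0.0497 without KA-SE replicate 1), with limma adjusted p-values between 0.547 and 0.888. Median scaling turned the sign of the medians of the thioredoxin (-0.06), heme and iron (-0.06), NADPH (-0.08) and, over its 12 tested genes, detoxification (-0.10) lists, beside the shift of -0.10 in all genes.

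**Figure D4:**
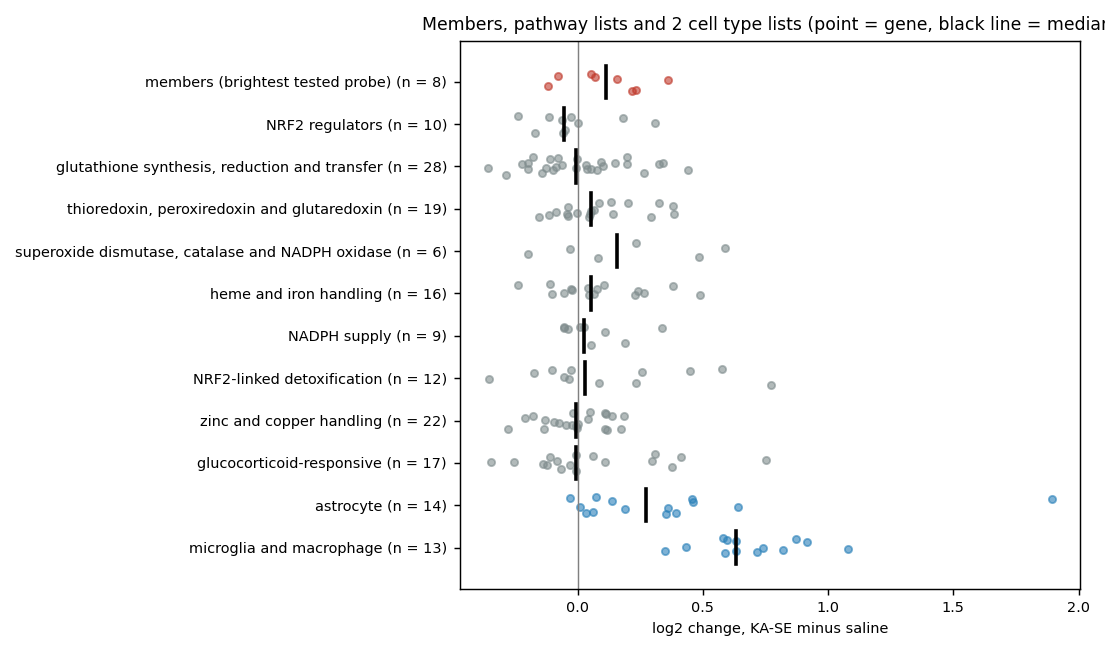
Log2 difference of KA-SE minus saline (horizontal axis) for each tested gene (points) of the 8 tested members, the 9 pathway lists and the astrocyte and microglia lists, with a black line at each median. The members' median is 0.11 and the pathway medians lie between -0.06 and 0.16 with Ncf4, Ugt1a6a and Akr1b8 included, while those of the astrocyte and microglia lists are 0.27 and 0.63.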

How the data were processed

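Total RNA was taken from the right DG of 3 KA-SE and 3 saline mice and hybridised as labelled cRNA to 1 Illumina MouseWG-6 array each. The authors deposited raw probe intensity values on a linear scale, without background subtraction, and a detection p-value for each, read in GenomeStudio. The authors also deposited a background-corrected, transformed and normalised table, called a score here, of unknown log base and offset (range 15.0 to 23.2, median 18.1); it served as an alternative. Versions of the upstream tools are not stated in the sources read. Arrays were grouped by sample title, and 2 raw columns with an additional digit in their names by trailing replicate number. Neither slides nor scan times were used.

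Intensities were corrected by normexp with negative controls inferred from detection p-values (offset 16), quantile normalised and taken to log2 (neqc, limma 3.58.1, R 4.3.3). A probe was kept when every array of KA-SE, or every array of saline, had a detection p-value below 0.05. The difference between KA-SE and saline was tested two-sided in limma (lmFit and eBayes, 6.40 prior degrees of freedom), and p-values were adjusted by Benjamini-Hochberg across the 21226 kept probes. SE and 95% intervals are the moderated ones. Each gene was represented by its brightest tested probe. Summed signals add linear normalised signals of a list's tested genes. Nothing says that arrays shared a batch, and 6 arrays limit the precision.

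Probes were named by the platform annotation with symbols updated through RefSeq (GRCm38.p6). Of 45281 probes 34885 had 1 gene, 18 several (left unnamed) and 10378 none listed. All 10 genes matched by symbol. The members and lists were chosen with earlier results of these data known. Named genes were the members, up to 4 of each pathway list by p-value, the 5 genes most like the member with the smallest p, and markers that moved with a result; Keap1, Slc7a11, Gpx4, Gss and Mt3 were added after their values were seen. Alternatives covered background correction, normalisation, source table, probe filter, variance prior, array weights, a replicate block, the threshold, the choice of probe and omission of each array. Pathway lists limited to genes detected on all 6 arrays, and the astrocyte sum without Gfap, were added after seeing the data. The procedure was also run on simulated independent values. Differences planted there were larger than that of any tested member, so the run does not speak to differences of their size.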

Additional observations from a re-analysis of the deposited data

How the results depend on the processing

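The count of member probes that passed was 0 under every alternative except an unadjusted p under 0.01, where it was 1 (Gpx1). Over all probes, 49 passed (45 higher and 4 lower), against 78 with median scaling (63 higher and 15 lower), 9 with the processed score, 81 with a trended robust prior, 89 with array weights, 32 with the replicate block and 580 at an unadjusted p under 0.01 (445 higher and 135 lower). With no filter on dim probes limma called 0, where 3000 passed at an unadjusted p under 0.05. Leaving out an array gave 4 to 85 probes, 85 of them without KA-SE replicate 1 and 4 or 5 without any other array. Deviations of same-numbered arrays from their group means correlated at 0.0224, 0.185 and 0.239. Differently numbered arrays were not compared, so whether replicate numbers pair the arrays was not tested. The replicate block moved no member across the threshold. Of 168 recomputed member values, 155 kept direction and side, 12 turned sign and 1 passed. Sign turned with median scaling for the members Mt2 (-0.0333) and Sod2 (-0.0633) and for Me1 (-0.0020), which is not a member, beside a median of -0.10 over all genes. It also turned with the processed score for Mt2 (-0.0037). Leaving out single arrays gave ranges of -0.25 to 0.12 for Mt1, -0.28 to 0.48 for Mt2, -0.29 to 0.24 for Mt3, -0.37 to 0.0243 for Gclc, -0.0339 to 0.127 for Sod2, -0.0580 to 0.245 for the third Srxn1 probe and -0.58 to 0.0497 for Ddit4. Of 728 values of 43 other genes, 709 kept direction and side, 3 turned sign and 16 crossed the threshold. Without the filter Gfap (limma adjusted p = 0.111) and Lyz2 (0.304) missed it, and Lyz2 also with the processed score (0.104) and the mean of its probes (0.0815). Of 128 list medians, 36 moved by over 1 SD. The causes were not tested. Dim probes, as of Hmox1 and Txnrd1, limit what could be measured.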
